A study of Ovis aries with 24 samples.

Results

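The insulin-like growth factors and their binding proteins were read in sheep skeletal muscle as 7 genes, IGF1, IGF2, IGFBP2, IGFBP3, IGFBP4, IGFBP5 and IGFBP6. The members were all probe sets whose gene symbol in the platform annotation was exactly one of these names, whatever their values. They came to 14 probe sets of 24128 on the array, and to 7 genes of 9156 with a symbol. Each of the 7 had at least 1 probe set.

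The study measured RNA of callipyge sheep, in which a mutation of an imprinted locus gives postnatal overgrowth of some muscles to lambs that inherit it from the father alone. The series holds 24 arrays in 12 groups, each group with 2 arrays labelled as technical replicates. Longissimus dorsi (LD), a loin muscle, was taken at 11 to 12 weeks of age (T12) and within 5 days of birth (T0) from genotype CN, labelled NCpat and paternal heterozygote, from CC, from NC, labelled CmatN and maternal heterozygote, and from wild type NN. Supraspinatus (SS), a shoulder muscle, was taken at T12 from CN and NN, and the muscles coded SM and ST at T12 from NN. The sample labels give the samples coded SM and those coded ST the same muscle name, semitendinosus, while the protocol calls SM semimembranosus, so whether they are separate muscles rests on the codes. All lambs were Dorset/Suffolk/Rambouillet crosses. The protocol speaks of 8 male lambs for LD, 4 to a genotype, and names only NN and NCpat, so the number of animals behind an array is unknown, and differences between animals and between genotypes cannot be told apart within a group. RNA of sheep was hybridised to a bovine array, and values are MAS5 signals, a linear intensity per probe set. Signals of different probe sets are not compared with each other.

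The samples carried the RNA of skeletal muscle. ACTA1, the actin of the muscle fibre, lay between 27820 and 36630 in group means of signal, and CKM, the muscle creatine kinase, between 27048 and 38736. The median signal of an array was 47.4 to 59.7, and the arrays of a pair correlated at r of 0.974 to 0.988 over brighter probe sets. How well each bovine probe set matches the sheep transcript is unknown here, so a dim signal sets no limit on the transcript.

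IGF1 and IGF2 are secreted growth factors that promote growth of muscle precursors and fibres through the receptor IGF1R. IGF2 is expressed from the paternal allele in many tissues of mammals, is abundant in fetal muscle, and is cleared by the receptor IGF2R. The binding proteins hold both ligands outside the cell: IGFBP3 carries them in serum, IGFBP4 mostly inhibits them, IGFBP5 binds to matrix and is known in muscle differentiation, IGFBP6 prefers IGF2, and IGFBP2 is a circulating form made by many tissues.

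Of the 14 probe sets, 13 exceeded the median group signal of 49.7 in at least 1 group and were tested with 15664 probe sets in all. The one left out, the dimmest IGF2 probe set, lay between 2.2 and 25 on single arrays. IGFBP2 passed that filter through 1 group only, LD of CC at T0, and the third IGF2 probe set by brightness through 2 groups. The brightest probe set stood for its gene. Geometric means over the 12 groups were 173 for IGF1, 2943 for IGF2, 21.9 for IGFBP2, 605 for IGFBP3, 96.4 for IGFBP4, 65.6 for IGFBP5 and 1622 for IGFBP6.

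**Figure D1:**
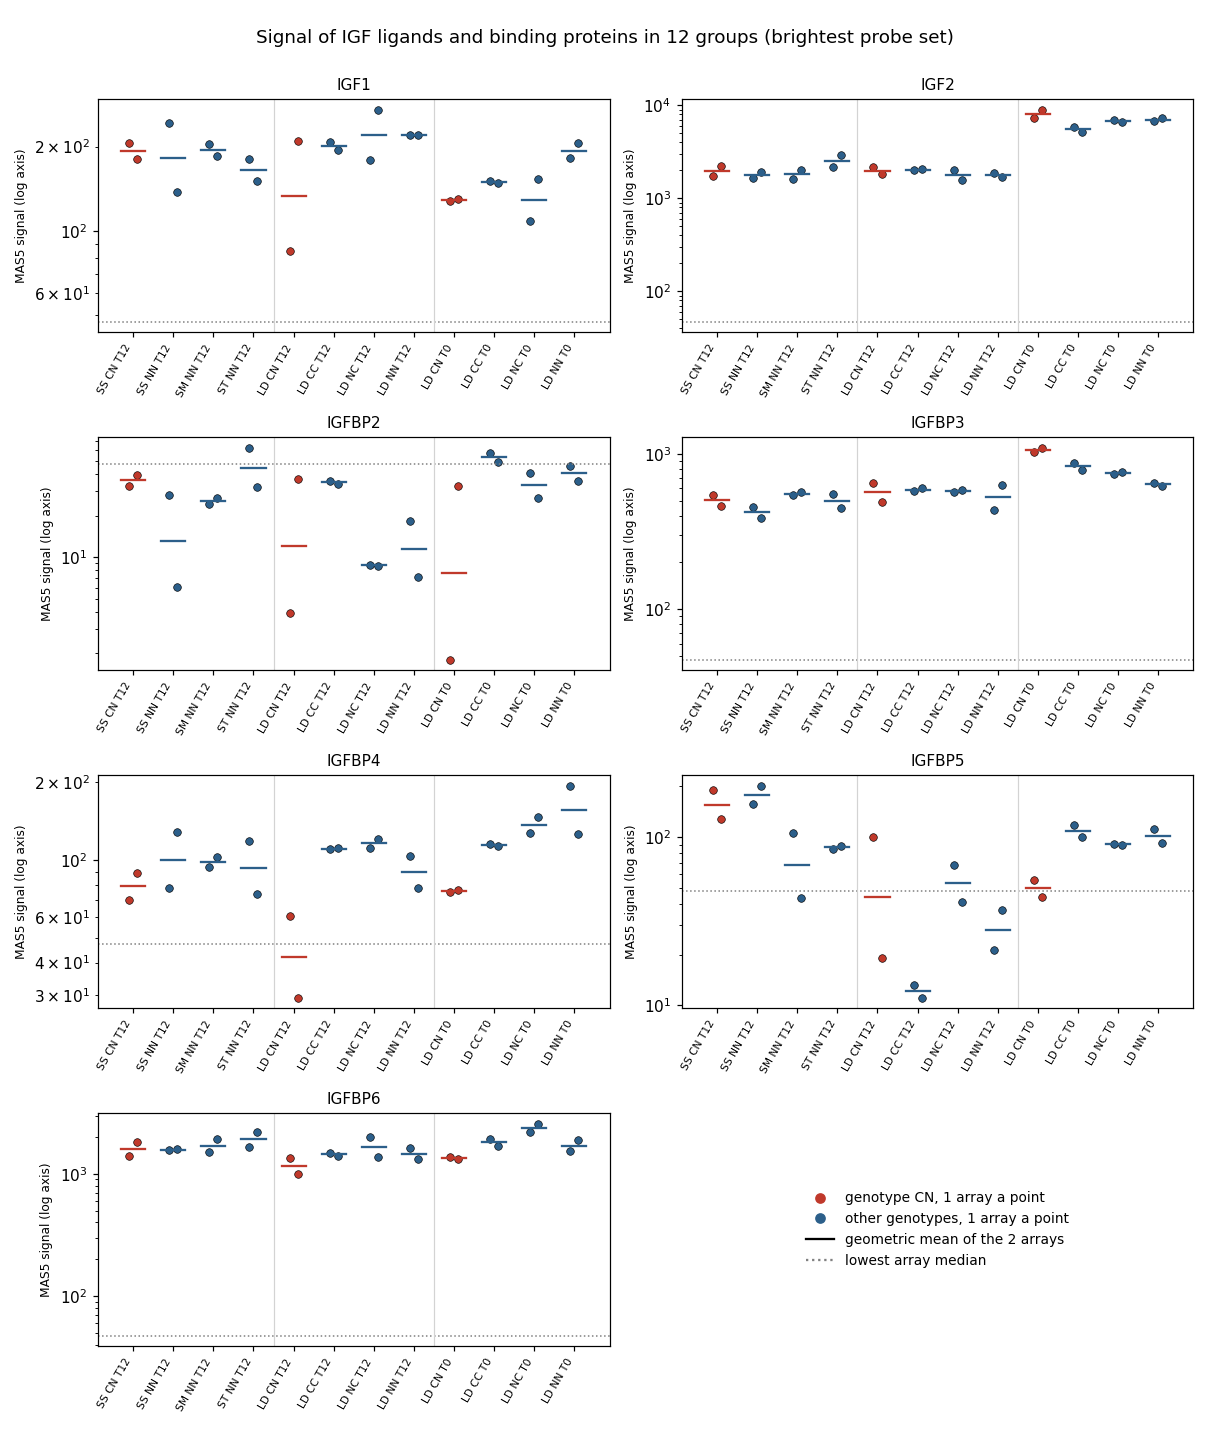
MAS5 signal (log axis) of the brightest probe set of each of the 7 genes on all 24 arrays, by group, with a bar at the geometric mean of the 2 arrays and a dotted line at the lowest array median, 47.4. IGF2 lies between 5182 and 8911 in LD at T0 and at 2906 or below in every T12 group, and IGFBP5 is highest in SS.

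The age comparison asked how the family differed between muscle of lambs of 11 to 12 weeks and of newborn lambs. In LD of genotypes CC, NC and NN, IGF2 fell to 1860 at T12, against 6394 at T0, a log2 difference of −1.78 ± 0.12 (SE, here and below; 95% interval −2.04 to −1.52; limma, adjusted p = 4.61e-05). IGFBP5 fell to 26.2 at T12, against arrays of 89.9 to 118 at T0 (−1.93 ± 0.45, limma adjusted p = 0.0178). No member passed the test in the upward direction. In all, 3 of the 13 tested member probe sets were called, all lower, beside 11.7% of all tested probe sets called, 5.79% lower and 5.89% higher. An unadjusted p under 0.05 was found for 7 of the 13, beside 26.3% of all. Each value of CC, NC and NN was the mean of 2 technical arrays, so p-values measure the spread between 3 group values per age and not between counted animals.

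IGF2 was the ligand with the lower signal at T12. In NN the T12 arrays read 1864 and 1686 and the T0 arrays 6811 and 7254. In CN they read 2183 and 1807 at T12 and 7216 and 8911 at T0. All 8 LD arrays at T12 lay between 1581 and 2183, below all 8 at T0, which lay between 5182 and 8911, and 2.92% of tested probe sets were separated in that direction. The log2 step, T12 minus T0, was −2.01 in CN, −1.43 in CC, −1.93 in NC and −1.99 in NN. In the order of the 12 groups, the gap between LD of CC at T0 and the next group, ST at T12 with 2506, was 1.13 on the log2 scale. That was the only neighbouring pair whose gap exceeded 2 SD of a difference between array pairs.

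The other IGF2 probe sets read differently. The second by brightness also fell, to 74.8 at T12 against 370.0 at T0 (−2.31 ± 0.46, limma adjusted p = 0.00861), and its LD arrays lay between 17 and 138 at T12 and between 244 and 610 at T0. With NN as the only comparator its difference was −4.18, where the NN arrays at T12 read 17 and 61.2, the first below every array median. Its step was −1.27 in CC, −1.46 in NC and −2.40 in CN. Over the 12 groups its log2 signal correlated with that of the brightest at r = 0.89, as a description. The third, at a geometric mean of 25.8, had a difference of 0.98 ± 0.54 (adjusted p = 0.291 by limma) and r = −0.15 with the brightest, and its T12 and T0 arrays overlapped.

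**Figure D2:**
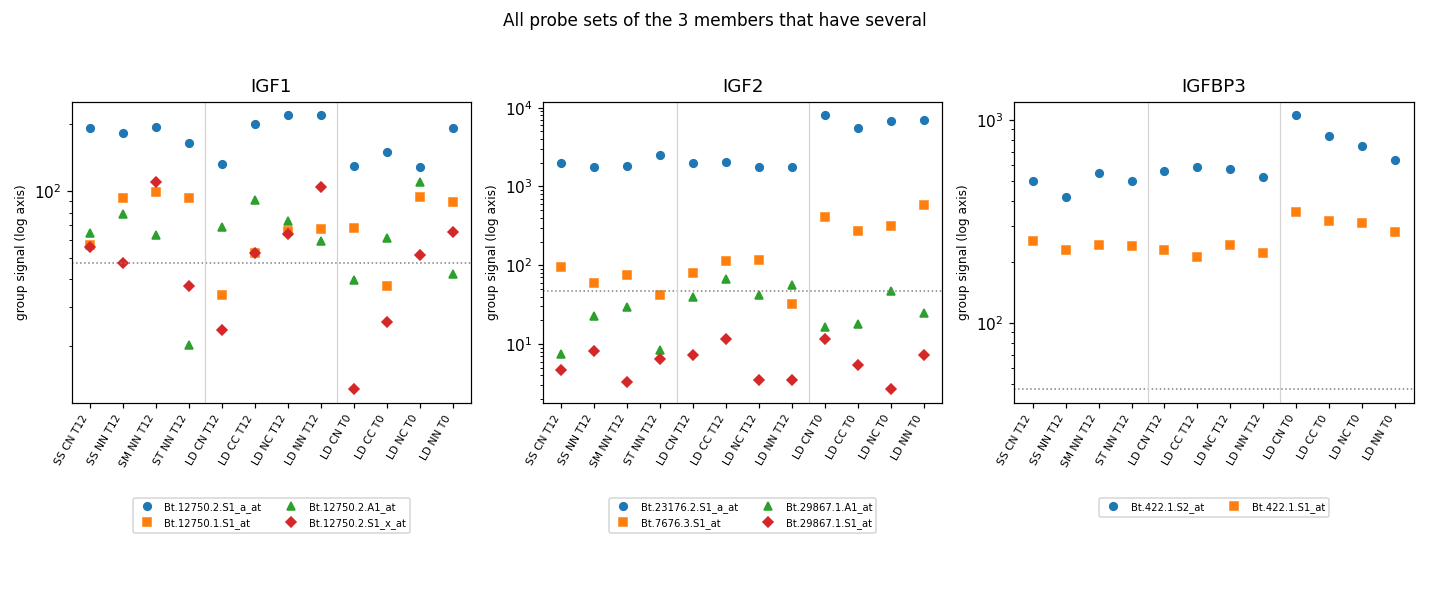
Group means of signal (log axis) of every probe set of IGF1, IGF2 and IGFBP3, with T12 groups left of T0 groups and a dotted line at the lowest array median. Both brighter IGF2 probe sets are low at T12 and high at T0, the IGFBP3 pair correlates at r = 0.87, and the dimmer IGF1 probe sets correlate with the brightest at 0.05 to 0.79.

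IGF1 did not pass the age test. Its brightest probe set averaged 213 at T12 and 155 at T0 in the genotypes other than CN, a difference of 0.46 ± 0.19 (limma adjusted p = 0.148) that was 0.18 with NN as the only comparator. Its LD arrays overlapped, between 84.5 and 270 at T12 and between 108 and 206 at T0. The remaining IGF1 probe sets differed by −0.14, 0.16 and 0.67, with adjusted p of 0.849, 0.82 and 0.351, so IGF2 and IGF1 did not share a direction of signal in their brightest probe sets, and the difference between them was not tested.

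The IGFBP5 arrays of each genotype were as follows. They read 100 and 19.2 in CN at T12 and 55.8 and 44.2 at T0. In CC they read 13.1 and 11.1 at T12 and 118 and 100 at T0. In NC they read 68.1 and 41.2 at T12 and 91.0 and 89.9 at T0. In NN they read 21.2 and 37.0 at T12 and 112 and 92.6 at T0. Both T12 arrays lay below both T0 arrays in CC, NC and NN, but in CN 1 T12 array lay above both T0 arrays. The share of all tested probe sets with this pattern was not counted, so it is given as a description. The step was −0.18 in CN, −3.17 in CC, −0.77 in NC and −1.86 in NN. Whether CC, NC and NN differ in this step was not tested, and the call was lost without CC (−1.32, limma adjusted p = 0.0507) and with NN as the only comparator (−1.86, adjusted p = 0.339).

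**Figure D3:**
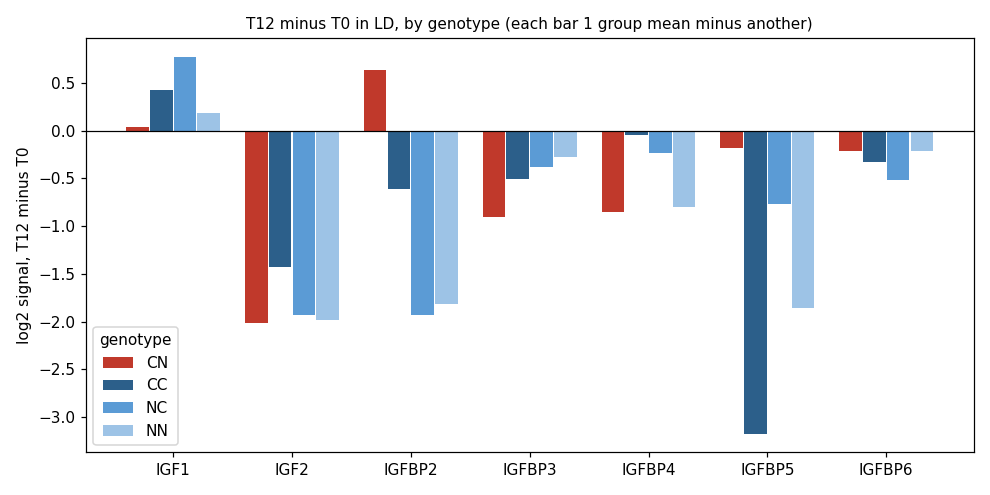
Log2 signal at T12 minus T0 in LD for each of the 7 genes, 1 bar per genotype, each bar being 1 group mean minus another with no error of its own. The 4 IGF2 bars lie between −1.43 and −2.01, whereas the IGFBP5 bars run from −0.18 to −3.17.

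The other binding proteins were below 0 in the age comparison and did not pass the test. IGFBP3, the serum carrier, averaged 561 at T12 and 734 at T0 (−0.39 ± 0.13, limma adjusted p = 0.0904), and its other probe set 225 and 303 (−0.43 ± 0.14, adjusted p = 0.0819). IGFBP3 passed only in the fits of single arrays, which counted technical arrays as almost independent. The differences of IGFBP6, IGFBP4 and IGFBP2 were −0.35 ± 0.14, −0.36 ± 0.22 and −1.45 ± 0.67, with adjusted p of 0.125, 0.337 and 0.195. With NN as the only comparator IGFBP6 was at −0.22 and IGFBP4 at −0.80. Of the 7 genes 6 were below 0, with a median of −0.39, beside a median of 0.06 over all tested probe sets, of which 44.8% were below 0. IGFBP2 was among the 6, but it was tested only because of LD of CC at T0. That group is on the T0 side of this comparison, so the filter favoured its sign.

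Of 39 tested cell markers 1 was called higher and 7 lower with age, beside 5.89% and 5.79% of all tested probe sets. The fibroblast and matrix list, with 9 of 9 genes on the array, summed to 41700 to 52903 at T12 and to 60174 to 68719 at T0. Sums here are per LD group of CC, NC and NN, the genotypes of the age test. Of the 9 genes 7 were below 0 and 2 above, and 3, COL1A1, COL1A2 and FMOD, were called lower. A sum weighs bright genes most. The mean log2 signal of the list in CC was 10.38 at T12 and 10.35 at T0. It was 9.72 and 10.59 in NC, and 9.86 and 10.36 in NN. MYH3 and MYH8, myosins of developing muscle, were called lower, and the sum of their list was 494 to 504 at T12 and 925 to 5133 at T0. Of the red blood cell list 2 of 3 tested genes, HBB and HBG, were called lower, with sums of 156 to 214 at T12 and 456 to 552 at T0. Of the macrophage list 1 of 4, AIF1, was called higher (0.72 ± 0.18, adjusted p = 0.025 by limma). In that list 2 of 4 genes were below 0, and the median difference was 0.13. The part of these cells in the IGF2 and IGFBP5 differences was not tested. In tissue RNA, fewer cells of a type and less RNA per cell cannot be told apart.

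The comparison at T12 asked how LD of the overgrown genotype CN differed from LD of CC, NC and NN. No member passed the test: 0 of 13 were called by limma and 3 had an unadjusted p under 0.05, beside 0.179% of all tested probe sets called and 9.97% under the unadjusted threshold. With the 24 arrays in a mixed fit with the group as a random block, 1 was called. That fit put the correlation between the arrays of a group at 0.02, so it counted technical arrays as almost independent. The 7 genes, 3 above 0 and 4 below, had a median difference of −0.34, beside −0.06 over all tested probe sets. That median was the value of IGFBP2, which passed the filter through 1 group only. Its sign turned with a floor of 16 (0.19) and with CC left out (0.26), so the median describes no shift of the family.

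IGFBP4, the inhibitory binding protein, had the lowest unadjusted p of the members at T12. Its arrays read 60.6 and 29.3 in CN, against 110 and 111 in CC, 112 and 121 in NC, and 103 and 77.5 in NN. Both CN arrays lay below all 6 others, as did the arrays of 7.58% of tested probe sets. Group signals were 42.1 in CN and 105 in the other genotypes (−1.31 ± 0.31, 95% interval −2.00 to −0.62), with a limma adjusted p of 0.143 over all probe sets. Without the first CN array the difference was −1.84 (adjusted p = 0.0224) and without the second −0.79.

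IGF1 rested on the CN array chosen. Its arrays read 84.5 and 209 in CN, against 207 and 194 in CC, 179 and 270 in NC, and 220 and 220 in NN. One CN array was the lowest of all and the other lay among the remaining genotypes. The difference was −0.68 ± 0.27 (133 in CN and 213 in the others, limma adjusted p = 0.404), −1.33 without the second CN array (adjusted p = 0.0282) and −0.03 without the first. The dimmest IGF1 probe set differed by −1.58 ± 0.60 (limma adjusted p = 0.388). Its CN arrays read 11.4 and 49.2, the first again the low one, against 48.2 to 113 in the others. The other IGF1 probe sets overlapped too, with 53.4 and 21.6 in CN against 38.3 to 115, and 59.5 and 79.4 against 38 to 93.1.

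IGF2, IGFBP3, IGFBP6, IGFBP5 and IGFBP2 did not pass the test at T12. IGF2 averaged 1986 in CN and 1860 in the others, a difference of 0.09 with a 95% interval of −0.27 to 0.46. IGFBP3 averaged 564 in CN and 561 in the others, at 0.01 with an interval of −0.41 to 0.42. IGFBP6, which prefers IGF2, was read at 1351 and 995.5 in CN and between 1319 and 1989 in the others (−0.39 ± 0.19, adjusted p = 0.55 by limma), so the groups overlapped. IGFBP5 had a difference of 0.75 ± 0.63 and IGFBP2 of −0.34 ± 0.94, both within the spread of their arrays. With CC left out the IGFBP5 difference was 0.19.

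**Figure D4:**
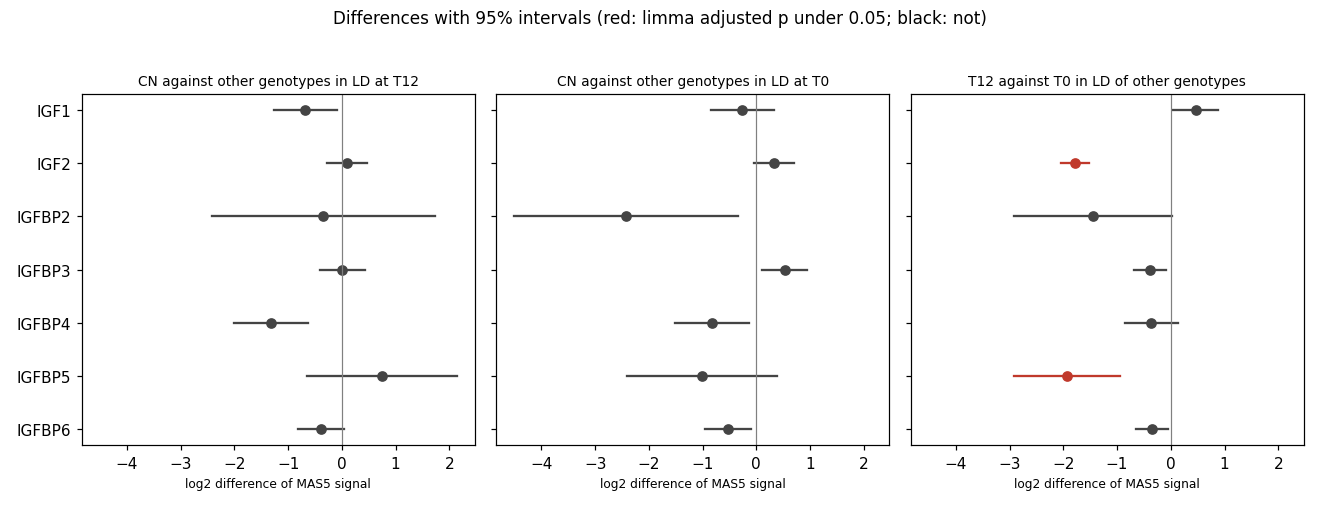
Log2 differences of the 7 genes with 95% intervals, for CN against the rest of LD (T12, then T0) and for T12 against T0 in the other genotypes, on 1 shared axis, red where the limma adjusted p was under 0.05. Only the age differences of IGF2 and IGFBP5 are red.

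Most cell markers stood lower in CN, 33 of 39 tested at T12 and 32 of 39 at T0. Their median differences were −0.49 and −0.32, beside −0.06 and −0.02 over all tested probe sets. The summed signal of the fibroblast and matrix list was 31155 in CN at T12, against 41700 to 52903 in the other genotypes. At T0 it was 47899 in CN, against 60174 to 68719. At each age 8 of the 9 genes of that list were below 0 and 0 were called, beside 0.179% of tested probe sets called at T12 and 0.172% at T0. An unadjusted p under 0.05 was found for 6 and 4, beside 9.97% and 11.7% of all. Slow fibre markers were also lower in CN at T12, with a sum of 55831 against 82779 to 101971, and MYH7 and TNNT1 were called lower. At T0 all 5 tested slow fibre genes were below 0 and 0 were called. All 4 tested endothelial and all 3 tested adipocyte genes were below 0 at both ages. Of the 39 genes 6 were above 0 at T12 and 7 at T0. Among these were 2 of 3 red blood cell genes at T12, and 2 of 4 macrophage and 2 of 5 developing muscle genes at T0. All 3 red blood cell genes were below 0 at T0. A log2 ratio of 3′ to 5′ GAPDH signal, a sign of RNA integrity, was −0.03 and 0.08 in CN at T12, against 0.04 to 0.25 in the others. The part of these differences in the IGFBP4 values was not tested.

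The same comparison was made at T0, since the design describes overgrowth as developing over the months after birth. Again 0 of 13 members were called by limma and 5 had an unadjusted p under 0.05, beside 0.172% of tested probe sets called and 11.7% under the unadjusted threshold. The arrays of CN lay apart from all 6 others for 5 member probe sets, 2 of them higher and 3 lower, beside 8.38% of tested probe sets separated higher and 9.68% lower.

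The higher pair were the IGFBP3 probe sets. The brighter read 1022.5 and 1090.5 in CN, against 875 and 792 in CC, 736 and 760 in NC, and 644 and 625 in NN. The CN arrays were the highest and the NN arrays the lowest. The difference was 0.53 ± 0.19 (1056 in CN and 734 in the others, limma adjusted p = 0.291), and the other probe set differed by 0.22 ± 0.20.

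The lower probe sets were those of IGFBP4, IGFBP5 and IGFBP6. IGFBP4 arrays read 75.4 and 76.2 in CN, against 115 and 113 in CC, 128 and 147 in NC, and 193 and 126 in NN (−0.83 ± 0.31, limma adjusted p = 0.315). IGFBP6 arrays read 1365 and 1331 in CN, against 1947 and 1683 in CC, 2195 and 2568 in NC, and 1534 and 1885 in NN (−0.53 ± 0.19, adjusted p = 0.297 by limma). IGFBP5 read 55.8 and 44.2 in CN and between 89.9 and 118 in the others (−1.01 ± 0.63, adjusted p = 0.619). CN thus held the lowest arrays for these 3 genes at birth, with none past the threshold. The CN arrays also had the lowest median signals in LD at each age, 47.4 and 48.1 at T0, against 50.1 to 52.9 in the others, and 49.65 and 51.6 at T12, against 53.6 to 58. The part of this in the lower CN values was not tested.

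Of the ligands at T0, IGF2 averaged 8019 in CN and 6394 in the others (0.33 ± 0.17, limma adjusted p = 0.509). One CN array, 7216, lay below an NN array of 7254. IGF1 had a difference of −0.26 ± 0.27, and IGFBP2 of −2.43 ± 0.94 that rested on 1 array, with 1.8 and 33.0 in CN against 26.8 to 57.2 in the others. It was −0.33 without the first CN array and −4.53 without the second. LD of CC at T0, the only group through which IGFBP2 passed the filter, was among the others here.

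Whether the CN difference itself changed between T12 and T0 was tested as an interaction. No member was called and none had an unadjusted p under 0.05, beside 0% and 8.89% of all tested probe sets. The interaction was −0.49 ± 0.44 for IGFBP4, −0.52 ± 0.27 for IGFBP3, 1.76 ± 0.89 for IGFBP5 and −0.23 ± 0.24 for IGF2. Without the first CN array at T12 that of IGFBP5 was 0.56. The T12 and age comparisons share the LD arrays of CC, NC and NN at T12, and the T0 and age comparisons those at T0.

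The genotypes pooled as others were compared with wild type over both ages. No member was called for NC against NN or for CC against NN, beside 0.0128% of tested probe sets called in each. For NC 1 of 13 had an unadjusted p under 0.05, beside 4.28% of all, and for CC 1, beside 5.48%. IGF2 averaged 3469 in NC and 3530 in NN (−0.03 ± 0.16), and 3350 in CC and 3530 in NN (−0.08 ± 0.16). Among the brightest probe sets the largest difference for NC was 0.37 ± 0.63, of IGFBP5. For CC, leaving out IGFBP2, which was tested only because of a CC group, it was −0.56 ± 0.63, also of IGFBP5. IGFBP6 averaged 1986 in NC and 1577 in NN, at 0.33 ± 0.14 with a limma adjusted p of 0.995.

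In SS, a muscle that does not overgrow in callipyge lambs, CN was compared with NN at T12. Each genotype gave a single value there, so SE and p took their spread from LD of CC, NC and NN. No member was called and none had an unadjusted p under 0.05, beside 0% and 4.19% of tested probe sets. IGFBP4 read 70 and 89.3 in CN and 77.8 and 128 in NN, which overlapped (−0.33 ± 0.38). IGF2 differed by 0.15 ± 0.20, IGFBP3 by 0.25 ± 0.23, IGF1 by 0.08 ± 0.33 and IGFBP6 by 0.02 ± 0.23. The LD difference minus the SS difference was −0.98 ± 0.49 for IGFBP4 and −0.76 ± 0.42 for IGF1 (limma adjusted p = 0.998 for each). Without the second CN array of LD these were −0.45 for IGFBP4 and −1.41 for IGF1, and without the first IGF1 was at −0.11. None of the 13 was called or had an unadjusted p under 0.05, beside 0% and 4.97% of tested probe sets.

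The muscles at T12 were compared to see how the family follows muscles of different fibre makeup. SS, SM and ST of NN each gave a single value, so SE and p took their spread from LD here too. An F test over LD, SS, SM and ST called 0 members, beside 1.28% of tested probe sets, and 3 member probe sets had an unadjusted p under 0.05, beside 12.7% of all. IGFBP5 was one of them (limma adjusted p = 0.145). Its arrays read 189 and 128 in SS of CN, 157 and 201 in SS of NN, 106 and 43.3 in SM, and 84.6 and 88.7 in ST, against 11.1 to 100 in LD. All 4 SS arrays lay above the arrays of the other muscles, as did those of 3.4% of tested probe sets. GAPDH 3′ over 5′ signal, on the log2 scale, was −0.03 to 0.09 on the SS arrays, against 0.11 to 0.22 in SM and ST and −0.03 to 0.25 in LD at T12. Red blood cell markers summed to 109 to 166 in SS, against 186 to 233 in SM and ST. The part of either in the IGFBP5 values was not tested.

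Wild type SS read 178 and SM with ST 76.6 for IGFBP5 (1.22 ± 0.67, limma adjusted p = 0.525). No member was called or had an unadjusted p under 0.05 there, beside 0.996% and 12.1% of tested probe sets. SM and ST read 76.6 and LD of CC, NC and NN 26.2 (1.55 ± 0.50, adjusted p = 0.493 by limma), a difference that was 0.99 with CC left out. There 0 members were called and 3 had an unadjusted p under 0.05, beside 0.0447% and 7.34%. The slow fibre list, with 5 of 6 genes on the array, summed to 139077 and 140560 in SS, to 122812 and 96695 in SM and ST, and to 55831 to 101971 in LD at T12. IGFBP5 and these sums were both highest in SS. By mean log2 signal of the list, however, SM (14.47) lay above SS of CN (14.39) and below SS of NN (14.53). In LD at T12 the lowest sum was that of CN. IGFBP5 read 43.9 there, against 12.1 in CC, 28.0 in NN and 53.0 in NC. The relation of IGFBP5 to the slow fibre list was not tested. IGF2 was highest among T12 groups in ST, with arrays of 2161 and 2906, one of which lay within the range of LD, and SM with ST differed from LD by 0.20 ± 0.13. IGF1, IGFBP3 and IGFBP6 differed by −0.25, −0.10 and 0.25 in that comparison.

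In the order of the 12 groups, neighbours mostly lay within 2 SD of each other, the SD being that between technical arrays. For IGFBP4 the only neighbouring gap beyond 2 SD was that of LD of CN at T0 over LD of CN at T12, which was the lowest group (0.85 on the log2 scale). No neighbours differed so for IGF1, IGFBP2, IGFBP3, IGFBP5 or IGFBP6. The SD between the arrays of a pair was 0.17 to 0.36 for IGF1, IGF2, IGFBP3, IGFBP4 and IGFBP6, 0.62 for IGFBP5 and 1.23 for IGFBP2. Over group values IGF2 and IGFBP3 correlated at r = 0.83, IGFBP4 and IGFBP6 at 0.74, and IGF1 at −0.61 with each of IGF2 and IGFBP3 (n = 12 groups that share age, muscle and genotype).

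The pathway around the family was read from a list of 66 genes, of which 41 had a probe set and 36 were tested. With age 6 rose and 3 fell, beside 5.89% and 5.79% of all tested probe sets. For CN against other genotypes 0 were called at T12 and 0 at T0 by limma, with 4 and 6 at an unadjusted p under 0.05, beside 9.97% and 11.7% of all.

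Among the receptors, IGF2R, which clears IGF2, averaged 1807 at T12 and 2242 at T0 (−0.31 ± 0.11, limma adjusted p = 0.111), and at T0 3193 in CN and 2242 in the others (0.51 ± 0.16, adjusted p = 0.225). IGF1R, the signalling receptor, was dim, at 10.5 in CN at T12 and 53.0 in the others (limma adjusted p = 0.363), and the size of a difference at such signals is not given. INSR, the insulin receptor, differed by −0.54 ± 0.60 in CN at T12, and GHR, the growth hormone receptor that drives IGF1, by −0.11 ± 0.19. The IRS1 adaptor had no probe set by symbol, and PAPPA, a protease of IGFBP4, was not tested, with group signals of 7.25 to 39.2.

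The 6 genes that rose with age included IGFALS, the partner of IGFBP3 in the serum complex, which was 157 at T12 and 79.4 at T0 (0.98 ± 0.25, limma adjusted p = 0.028). The others were ADAMTS1, a metalloprotease (0.88), RHEB, an activator of mTOR (0.36), DDIT4, its inhibitor (1.53), FOXO4, a transcription factor restrained by AKT (0.94), and FBXO32, a ubiquitin ligase of muscle atrophy (2.69). SOCS2, a feedback inhibitor of growth hormone signalling, fell to 464 at T12, against 1211 at T0 (−1.38 ± 0.16, adjusted p = 6.09e-04 by limma). GSK3B, a kinase inhibited by AKT, and PLAGL1, an imprinted regulator, fell by 0.75 and 0.81. FBXO32 ranged between groups, from 1734 to 3825 in LD at T12 and from 102 to 1949 at T0. IGF2 and SOCS2 thus both fell, while the brightest IGF1 probe set and GHR (0.25 ± 0.13, adjusted p = 0.27) did not pass the test.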

How the data were processed

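RNA of 24 samples was hybridised to bovine Affymetrix arrays from 5 µg of total RNA. The deposited values are linear intensity signals computed by the authors with MAS5, per the submitters' processing notes; no version of it is named in the sources used. The trimmed mean (2% from each end) of every array was 200.08 to 200.093. Precision is limited by 2 technical arrays a group.

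Signals were floored at 1 and taken to log2, and the arrays of a group were averaged, giving 12 values. The 112 control probe sets were left out, and probe sets above the median group signal in at least 1 group were tested (15664). Fits used limma 3.58.1 in R 4.3.3 with a prior variance that follows signal; tests were two-sided, p-values were adjusted by Benjamini-Hochberg over every tested probe set, and the threshold was 0.05. At each age the LD values of genotypes NN, NC and CC were 3 values of one cell, leaving 4 residual degrees of freedom. Every other cell held a single value, CN in LD included, so the spread of that fit came from LD of these 3 genotypes. NC and CC were set against NN in the 8 LD values, with age in the model (3 residual). The fits were tested on simulated data.

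Gene symbols came from the platform annotation, which gave 13318 probe sets 1 symbol, 86 several and 10724 none. All 7 member symbols also occur in the RefSeq sheep table. The brightest probe set stood for a gene. The 3 genes most like each member were the highest Pearson r over the 12 groups, and pathway genes were named where they passed the test, besides IGF1R, IGF2R, INSR, IRS1, GHR and PAPPA; HTRA1 and IGFBP7 were added after their values were seen. Members, lists and alternatives were chosen with earlier results of these data known.

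Replicate numbers did not pair samples: the correlation of deviations of same-numbered arrays ran between −0.07 and 0.10 over 66 pairs of groups, with 1 above 0.1. Other scalings, floors, filters, comparators, fits of single arrays and each left-out array were tried.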

Additional observations from a re-analysis of the deposited data

How the results depend on the processing

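In all, 71 values were followed under 8 alternatives and with each of 24 arrays left out. Of 2094 recomputed values 2038 kept direction and side of the threshold, 5 lost the call, 6 gained one and 45 changed sign, 36 of these with an array left out. The brightest IGF2 probe set stayed called with age in all of them (adjusted p of 0.0333 or lower by limma). The cause of the changes below was not tested. The fits of the 24 arrays put the correlation between the arrays of a group at 0.02, or 0.04 with a replicate block. They thus counted technical arrays as almost independent, unlike the main fit.

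The count of members called for CN at T12 was 1, IGFBP4, in fits of the 24 arrays with the group as a random block, without a replicate block (limma adjusted p = 0.0229) and with it (0.0285), and 0 to 1 with an array left out. With age the count was 1 without an intensity trend, 5 in both 24-array fits, replicate block included, where IGFBP3 gained a call (adjusted p = 0.0158 without the block and 0.0186 with it, by limma), and 2 to 3 with an array left out. IGFBP5 lost its age call without the trend (0.0977) and without the second NC array at T12 (−1.81, adjusted p = 0.0547 by limma), and the second IGF2 probe set without the trend (0.0859). The count over muscles was 1 in both 24-array fits, replicate block included, and 0 to 1 with an array left out.

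Under quantile normalization the sign turned for IGFBP3 in CN at T12 (−0.024) and for IGF1 (−0.011) and IGFBP4 (−0.0030) in SS against SM and ST. IGFBP2 in CN at T12 turned with a floor of 16 (0.19), NN as sole comparator (0.056) and CC left out (0.26). The last pair of settings gave 0.016 and 0.014 for IGF2 in LD minus SS, and NN alone 0.095 for IGFBP4 in SM and ST against LD.

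With an array left out, CN at T12 ran from −0.042 to 0.23 for IGF2, −1.96 to 1.27 for IGFBP2, −0.20 to 0.22 for IGFBP3 and −0.45 to 1.94 for IGFBP5. T12 minus T0 of the CN difference ran from −1.07 to 0.23 for IGF1, −0.012 to 4.18 for IGFBP2, −1.01 to 0.039 for IGFBP4 and −0.085 to 0.36 for IGFBP6. In SS the ranges were −0.33 to 0.49 for IGF1, −0.019 to 0.32 for IGF2, −0.69 to 0.023 for IGFBP4, −0.48 to 0.088 for IGFBP5 and −0.17 to 0.21 for IGFBP6. LD minus SS gave −0.22 to 0.11 for IGF2 and −0.25 to 2.13 for IGFBP5. SS against SM and ST gave −0.39 to 0.43 for IGF1 and −0.30 to 0.42 for IGFBP4, and SM and ST against LD −0.30 to 0.037 for IGFBP4. NC against NN gave −0.11 to 0.060 for IGF2 and −0.063 to 0.25 for IGFBP4, and CC against NN −0.23 to 0.083 for IGFBP4 and −0.037 to 0.11 for IGFBP6.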

Other observations

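For each member, the 3 genes with the most alike pattern over the 12 group values were found among 3253 bright probe sets with a symbol. Each gene was taken at its highest r. IGF2 was followed most closely by AHSG (r = 0.98), the fetuin of serum, by PPP2R1A, a scaffold subunit of protein phosphatase 2A, and by DNM1L, a mitochondrial fission enzyme (0.96 each). IGFBP3 was followed by RRAS (0.99), a small GTPase, by P4HB (0.95), a protein disulfide isomerase, and by EED (0.94), a Polycomb subunit. RRAS was highest in LD of CN at T0, with 3494, and lowest in SS of NN, with 871, the same extremes as IGFBP3. IGFBP5 was followed by ATP2A2, the calcium pump of slow fibres (0.86), which read 6985 in SS of NN and 686 in LD of CC at T12, and then by SFRS18 (0.84) and PSMC6 (0.82). IGFBP4 was followed by ATP5IF1 (0.88), ETFB and LAMA4 (0.87 each), all lowest in LD of CN at T12. The values for IGF1 were CSN2 (0.88), CAV2 and C6H4orf3 (0.83 each), those for IGFBP2 THBS4 (0.86), SSBP1 (0.83) and ANGPTL2 (0.74), and those for IGFBP6 SLC25A20 (0.87), ZNF692 and PEX7 (0.86 each). These r values describe 12 groups that share age, muscle and genotype.

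A pair of pathway genes that passed no test were chosen after their values were seen. HTRA1, a protease that cleaves binding proteins, averaged 661 in CN and 1262 in the other genotypes of LD at T0 (−0.93 ± 0.18, limma adjusted p = 0.0574), and its difference at T12 was −0.21 ± 0.18. IGFBP7, a related binding protein of low affinity, averaged 2654 in CN and 4224 in the others at T12 (−0.67 ± 0.15, adjusted p = 0.129), and 2941 and 4193 at T0 (−0.51 ± 0.15, adjusted p = 0.191).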
